A study of Mus musculus with 32 samples.

Results

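Interferon-stimulated genes are switched on when a cell senses an interferon, the secreted signal of viral infection and tissue damage. Steady-state levels of 38 such genes, of 35715 named genes on the array, were followed in the lungs of mouse pups. They were taken as a named list of well-known targets, and a probe belonged to the set when the array design gave it the name of a listed gene. This gave 49 probes of 55681 mouse probes. A single probe reported 27 of the genes, and the other 11 had 2 probes each, of which the brighter is used below unless stated. Of the 49 probes, 47 were well above background on all 32 arrays, 1 was so on no array (the dimmer probe of Irf1), and the remaining one, of Oas3, on most. All 38 genes passed the filter on dim probes at both ages, so none is missing from the counts.

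The experiment asked how an antimiR against the microRNA miR-34a alters lung development under hyperoxia, a mouse model of bronchopulmonary dysplasia, the chronic lung disease of preterm infants. Newborn wild-type C57Bl/6J pups received a scrambled antimiR or antimiR-34a (antagomiRs in the labels) and were kept in normoxia (21% O2) or in hyperoxia (85% O2), with lungs taken at post-natal day (P)5 or P14 by the sample labels, and at P5.5 or P14.5 by the extraction protocol. The 8 groups, each combination of age, oxygen and antimiR, held 4 mice each, with 1 array per mouse. Every pup carried an injected oligonucleotide, since no group was left uninjected, both sexes were used, and lungs were perfused before homogenization. As whole-lung RNA was measured, fewer cells of a type and less RNA per cell cannot be told apart.

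Type I and type III interferons signal through receptor-bound Janus kinases to a transcription factor complex that includes STAT2 and IRF9 and binds a DNA element known as the interferon-stimulated response element (ISRE) before its target genes. Type II interferon acts through another element, the gamma-activated site (GAS). The products of the target genes sense viral RNA, block viral translation and assembly, carry ISG15 onto other proteins, coat intracellular vacuoles, or cut and transport peptides for antigen presentation. In the lung these genes are expressed in epithelium and endothelium as well as in macrophages and lymphocytes.

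Levels here are log2 signals from which the array's own 75th percentile was subtracted, so a level of 0 is that percentile. Levels compare mice for 1 probe, and not 1 probe with another. Between 33616 and 40788 probes were well above background per array, and no probe was saturated. The 10 lung epithelial and endothelial markers used to check the tissue were well above background on all arrays of all 8 groups. The 4 slides each carried mice of 1 age and 1 oxygen level, so the effects of oxygen and age cannot be told apart from the slide, and the antimiRs were compared within a slide. On each slide the scrambled arrays lay in row 1 and the antimiR-34a arrays in row 2, so the antimiR effect cannot be told apart from the row. The comparisons share mice, since a normoxia scrambled group enters the oxygen, age and antimiR comparisons alike. A mouse of the P5 normoxia scrambled group (replicate 4) had a skeletal muscle score of 5.17, against -1.25 to 1.80 in every other mouse.

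The promoter stretches below are shown because they hold the ISRE core or the GAS, in 4 members that rose in P14 hyperoxia (Isg15, Ifit3, Oas1a and Bst2) and in 3 that were not called there (Gbp2, Irgm1 and Irf1). They are the 200 bases before the start of the RefSeq transcript, on the gene's strand and 5′ to 3′, in build GRCm38.p6. Capitals mark matches on either strand to the ISRE core, which was searched as GAAA, any 2 bases and GAAA again, with overlapping matches joined, and in Irf1 the match to the GAS motif TTCNNNGAA.
Isg15, chr4:156200819-156201018, minus strand: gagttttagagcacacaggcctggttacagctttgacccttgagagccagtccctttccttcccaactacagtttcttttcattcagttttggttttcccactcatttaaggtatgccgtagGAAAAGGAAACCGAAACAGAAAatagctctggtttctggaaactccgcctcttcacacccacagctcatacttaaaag
Ifit3, chr19:34583329-34583528, plus strand: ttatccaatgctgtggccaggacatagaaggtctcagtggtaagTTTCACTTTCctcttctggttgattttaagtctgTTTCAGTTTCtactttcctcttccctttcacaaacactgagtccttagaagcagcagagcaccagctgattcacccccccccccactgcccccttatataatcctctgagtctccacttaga
Oas1a, chr5:120907526-120907725, minus strand: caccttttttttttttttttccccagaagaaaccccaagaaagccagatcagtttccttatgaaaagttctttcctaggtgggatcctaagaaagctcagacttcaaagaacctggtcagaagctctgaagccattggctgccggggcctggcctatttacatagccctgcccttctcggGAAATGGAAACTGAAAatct
Bst2, chr8:71537473-71537672, minus strand: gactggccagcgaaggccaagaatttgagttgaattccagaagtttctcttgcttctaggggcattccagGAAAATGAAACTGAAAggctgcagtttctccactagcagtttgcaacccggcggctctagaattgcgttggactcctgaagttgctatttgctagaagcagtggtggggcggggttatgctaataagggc
Gbp2, chr3:142620463-142620662, plus strand: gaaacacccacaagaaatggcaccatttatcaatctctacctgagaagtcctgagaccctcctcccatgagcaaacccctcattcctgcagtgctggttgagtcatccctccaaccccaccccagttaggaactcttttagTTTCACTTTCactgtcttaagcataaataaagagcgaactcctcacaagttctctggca
Irgm1, chr11:48871421-48871620, minus strand: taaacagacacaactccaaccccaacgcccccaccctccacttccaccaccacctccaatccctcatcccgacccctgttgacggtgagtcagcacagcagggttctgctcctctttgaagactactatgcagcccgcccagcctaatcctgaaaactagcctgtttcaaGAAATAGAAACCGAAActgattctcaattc
Irf1, chr11:53769814-53770013, plus strand: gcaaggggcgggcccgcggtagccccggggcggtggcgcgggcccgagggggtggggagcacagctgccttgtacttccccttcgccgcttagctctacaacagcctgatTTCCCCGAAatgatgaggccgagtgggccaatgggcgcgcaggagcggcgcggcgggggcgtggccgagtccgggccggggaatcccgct

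The Isg15 stretch held 3 overlapping matches to the ISRE core between bases -78 and -57, counting the base before the transcript start as -1. Of the 38 members, 28 had a window in the RefSeq table, reaching from 250 bases before to 50 after the start, and 15 of those 28 (53.6%) held the ISRE core in some window, against 3.99% of all 27025 genes in the table. The GAS motif was in 8 of the 28 (28.6%), against 9.55% of all genes, and a GAS match can overlap an ISRE match in part, as in Bst2. No match says only that these letters are not in the window.

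At P14 the members that rose in hyperoxia were 4 signalling components, the nucleic acid sensors Zbp1 and Dhx58, 9 antiviral effectors and Xaf1, with the sensor Ddx58 higher on its brighter probe only, whereas the GBP and IRG family GTPases and the antigen-processing genes did not pass the test. In scrambled-treated mice, 17 of the 38 members were higher and 1 was lower in 85% O2 than in 21% O2 (limma, adjusted p below 0.05). Over all 38458 probes tested, 60.9% were called, 28.2% higher and 32.7% lower. The median log2 fold change was 0.22 over the members and -0.07 over all probes tested. The 2 groups did not overlap in 18 members, and 56.7% of all probes tested did not overlap either. With quantile normalization the members split as 15 higher and 3 lower. Of the 10 second probes tested at P14, 3 had the opposite sign to the brighter probe of the gene, and 2 (Isg15 and Oas1a) were called in the same direction.

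Ifit3, whose product binds viral RNA together with other IFIT proteins, rose most at P14. Its level was 0.55, 0.52, 0.60 and 0.47 in the 4 normoxia mice and 2.48, 2.46, 2.10 and 2.46 in the 4 hyperoxia mice. The groups lay far apart, and the lowest hyperoxia mouse was still above every normoxia mouse. The log2 fold change was 1.84 ± 0.13 (SE, limma, adjusted p = 9.63e-08), a 3.58-fold difference. The near-identical gene Ifit3b may contribute to this probe's signal.

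Zbp1, a sensor of Z-form nucleic acids that can start programmed cell death, read -2.34, -2.75, -2.49 and -2.93 in normoxia and -0.87, -0.96, -0.99 and -1.36 in hyperoxia. All 4 hyperoxia mice were above all 4 normoxia mice. The log2 fold change was 1.58 ± 0.23 (SE, limma, adjusted p = 5.56e-05). The dimmer Zbp1 probe had a value of 0.99 ± 0.53 and was not called (limma, adjusted p = 0.116). Among the other sensors, the cytosolic RNA helicase regulator Dhx58 rose by 0.52 ± 0.12 (adjusted p = 0.00145), while Ifih1, which encodes the long double-stranded RNA sensor MDA5, had a value of -0.13 ± 0.14 (limma, adjusted p = 0.408). The RNA helicase gene Ddx58, encoding RIG-I, had probes in disagreement. Its brighter probe was higher by 0.41 ± 0.09 (adjusted p = 0.00143) and its dimmer probe was lower, at -0.42 ± 0.13 (limma, adjusted p = 0.012), so no direction is given for it beyond that of each probe.

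Mx2, a dynamin-like antiviral GTPase, read -1.52, -1.53, -1.47 and -1.52 in normoxia at P14 and -0.09, -0.19, -0.50 and 0.06 in hyperoxia. The normoxia mice were nearly equal and the hyperoxia mice all lay above them, with a log2 fold change of 1.33 ± 0.11 (SE, limma, adjusted p = 5.2e-07). Its relative Mx1, whose transcript in C57Bl/6 mice lacks coding exons, rose by 0.77 ± 0.22 (limma, adjusted p = 0.00875). Bst2, the membrane tether that holds budding virus particles on the cell, read 3.18, 3.18, 3.02 and 3.1 in normoxia. In hyperoxia 3 mice read 4.11, 4.07 and 4.11, and the fourth (replicate 1) had no value for this probe and was left out of its fit. The Bst2 log2 fold change was 0.98 ± 0.11 (SE, limma, adjusted p = 6.19e-06), and 0.65 with the authors' processed values.

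Among the oligoadenylate synthetase genes, whose products activate the RNA-degrading enzyme RNase L or bind nucleic acids, Oas1a read 1.09, 0.78, 0.88 and 0.47 in normoxia and 1.94, 1.81, 1.47 and 1.27 in hyperoxia at P14. The groups did not overlap, and the log2 fold change was 0.82 ± 0.21 (SE, limma, adjusted p = 0.00429), with 0.85 on the second probe of the gene. Oas1a shares close sequence with Oas1g. Oasl1 rose by 0.81 and Oas2 by 0.47, whereas Oasl2 (0.21) and Oas3 (-0.27) were not called. The dsRNA-activated kinase gene Eif2ak2, encoding PKR, rose by 0.52, and Ifit1 rose by 0.40. Of the 14 effectors, 9 were higher and 0 lower, where 28.2% of all probes were higher and 32.7% lower, with a median log2 fold change of 0.50. The effectors that did not pass were Ifit2 (-0.07), Cmpk2 (-0.23), Rsad2 (-0.71 ± 0.46), Oasl2 and Oas3.

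**Figure D1:**
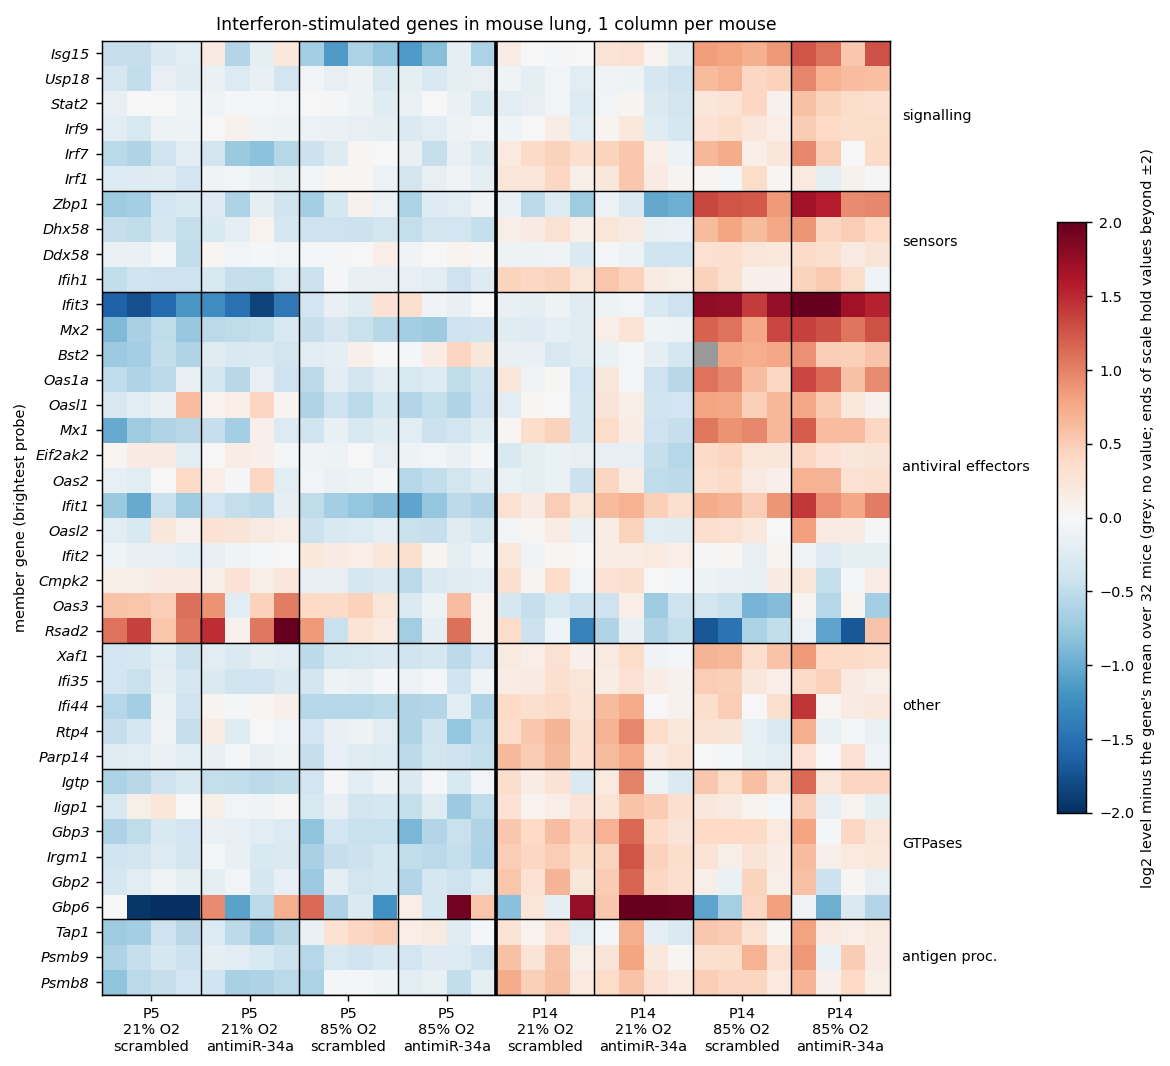
Level of each of the 38 members in each of the 32 mice, as the log2 level minus the gene's own mean over all mice (colour scale in log2 units, grey where no value exists, ends of the scale holding values beyond the limits). Rows are members grouped by role and columns are mice grouped by age, oxygen and antimiR, and the warm block of Ifit3, Zbp1, Mx2, Bst2 and Usp18 in the P14 85% O2 mice stands beside mixed rows such as Gbp6 and Rsad2.

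The signalling members split in a similar way. Isg15, the ubiquitin-like modifier, read 2.91, 2.77, 2.74 and 2.77 in normoxia and 3.61, 3.56, 3.48 and 3.63 in hyperoxia at P14, with no overlap. Its log2 fold change was 0.77 ± 0.15 (SE, limma, adjusted p = 0.000488), and its second probe gave 0.87. Usp18, the protease that removes ISG15 and damps receptor signalling, read 0.36, 0.26, 0.39 and 0.24 in normoxia and 1.08, 1.15, 0.86 and 0.91 in hyperoxia, a log2 fold change of 0.69 ± 0.11 (SE, limma, adjusted p = 7.81e-05). Of the subunits of the ISRE-binding complex in the list, Stat2 rose by 0.42 (adjusted p = 0.00261) and Irf9 by 0.28 (limma, adjusted p = 0.0484). The transcription factor genes Irf7 (0.10 ± 0.20) and Irf1 (-0.15 ± 0.12) were not called.

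The remaining roles showed few or no calls at P14. Among the other members, Xaf1, linked to apoptosis, rose by 0.38, with 0.26 on the dimmer probe, which was not called (limma, adjusted p = 0.403). Parp14, an ADP-ribosyltransferase gene, read 2.21, 2.06, 2.21 and 1.90 in normoxia and 1.56, 1.54, 1.41 and 1.34 in hyperoxia. It was the 1 member that fell, by 0.63 ± 0.13 on the log2 scale (SE, limma, adjusted p = 0.00106), and every hyperoxia mouse was below every normoxia mouse. None of the 6 interferon-inducible GTPases (Gbp2, Gbp3, Gbp6, Igtp, Irgm1 and Iigp1, which act on intracellular vacuoles) was called, with a median log2 fold change of -0.19. Both Gbp2 (-0.30 ± 0.22) and Irgm1 (-0.24 ± 0.17) hold the ISRE core in the stretches shown above. Nor was any of the antigen-processing members, which are the peptide transporter gene Tap1 (0.23 ± 0.22) and the immunoproteasome subunits Psmb8 (-0.11 ± 0.14) and Psmb9 (0.03 ± 0.21). Of the 15 members with the ISRE core in their window 8 were higher and 0 lower, with a median of 0.40, and of the 13 with a window but no core 3 were higher and 0 lower, with a median of 0.10, where 28.2% of all probes were higher and 32.7% lower. Of the 10 members without a window 6 were higher and 1 lower, with a median of 0.5. With age in normoxia the medians were 0.41 with the core and 0.54 with a window but no core. Those sets were not tested against each other.

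At P5 the members that rose in hyperoxia included the antigen-processing genes Tap1 and, less firmly, Psmb8 beside Ifit3 and Bst2. The other antigen-processing gene, Psmb9, was not called (log2 fold change 0.06). In scrambled-treated mice 10 members were higher and 3 lower in hyperoxia (limma), while 43.9% of all 35984 probes tested were called, 17.4% higher and 26.5% lower. The median log2 fold change was 0.05 over the members and -0.07 over all probes. With quantile normalization the split was 10 higher and 1 lower, and the calls of Oasl1, Iigp1 and Psmb8 were lost. Without replicate 2 of the P5 hyperoxia scrambled group 7 members were called, and without replicate 3 of that group 8.

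Ifit3 was again the member with the strongest call at P5. It read -0.91, -1.05, -0.85 and -0.46 in normoxia and 0.33, 0.55, 0.47 and 0.99 in hyperoxia. The groups stood apart, with a log2 fold change of 1.40 ± 0.17 (SE, limma, adjusted p = 1.72e-05), or 2.65-fold. Tap1, a subunit gene of the peptide transporter of antigen presentation, read -1.98, -1.95, -1.68 and -1.82 in normoxia and -1.41, -0.98, -0.86 and -0.79 in hyperoxia. All hyperoxia mice were higher, by 0.84 ± 0.14 (SE, limma, adjusted p = 0.00025). Bst2 read 2.61, 2.65, 2.84 and 2.74 in normoxia and 3.13, 3.16, 3.44 and 3.35 in hyperoxia, again without overlap, and rose by 0.56 ± 0.10 (SE, limma, adjusted p = 0.00034).

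Smaller rises at P5 were called for Mx1 (0.44), Psmb8 (0.35), Ifit2 (0.34), Igtp (0.30), Irf1 (0.26), Mx2 (0.26) and Ifih1 (0.23). The calls were lost under 12 of 17 alternatives for Psmb8, 9 for Mx2, and 2 each for Mx1 and Igtp, and that of Ifih1, whose dimmer probe gave 0.28 and was not called (limma, adjusted p = 0.214), was not recomputed. Of the 15 members with the ISRE core 4 were higher and 0 lower at P5 (median -0.03), of the 13 with a window but no core 4 were higher and 2 lower (0.06), and of the 8 with a GAS match, which overlap both sets, 5 were higher and 0 lower (0.28), where 17.4% of all probes were higher. At P14 3 of those 8 were higher and 0 lower, where 28.2% of all probes were higher. These sets were not tested against each other.

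The members that fell at P5 were Cmpk2, Oasl1 and Iigp1. Cmpk2, a mitochondrial nucleotide kinase gene next to Rsad2, read -0.37, -0.37, -0.32 and -0.31 in normoxia and -0.63, -0.65, -0.83 and -0.77 in hyperoxia, and fell by 0.38 ± 0.07 on the log2 scale (SE, limma, adjusted p = 0.000968). The dimmer Cmpk2 probe gave -0.14 and was not called (limma, adjusted p = 0.196). Oasl1, which restrains translation of Irf7, read -0.98, -0.88, -0.79 and -0.03 in normoxia and -1.25, -1.06, -1.19 and -1 in hyperoxia. The normoxia mouse at -0.03 is replicate 4, which carried the skeletal muscle transcripts, and without it the value of -0.45 became -0.24 (limma, adjusted p = 0.0656) and the call was lost, as it was under 9 of 17 alternatives in all, among them leaving out replicate 1, 2 or 3 of the hyperoxia group. Without that mouse 9 members were higher and 2 lower in all. Iigp1, a vacuole-attacking GTPase with a near-identical copy, fell by 0.30 (adjusted p = 0.0484), a call lost under 13 of 17 alternatives, and its dimmer probe gave -0.21 and was not called (limma, adjusted p = 0.211).

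Isg15, which rose at P14, read 2.31, 2.30, 2.48 and 2.56 in normoxia and 2.08, 1.63, 2.13 and 2.00 in hyperoxia at P5. All 4 hyperoxia mice were lower, but the value of -0.45 ± 0.20 did not pass on the brighter probe (limma, adjusted p = 0.0816) and just passed on the dimmer (-0.52, adjusted p = 0.0459). Rsad2, encoding the antiviral enzyme viperin, read 1.44, 1.72, 0.90 and 1.41 in normoxia and 1.20, -0.10, 0.62 and 0.54 in hyperoxia. The groups overlapped, and the value of -0.80 ± 0.42 was not called. Gbp6 varied by more than 2 log2 units within groups, from -0.74 to 1.66 in normoxia and from 0.46 to 2.79 in hyperoxia, and its value of 1.40 ± 0.66 was not called either (limma, adjusted p = 0.101), with -0.05 on the dimmer probe. At P5 5 of the 10 second probes had the opposite sign to the brighter probe, and in none of these was either probe called.

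**Figure D2:**
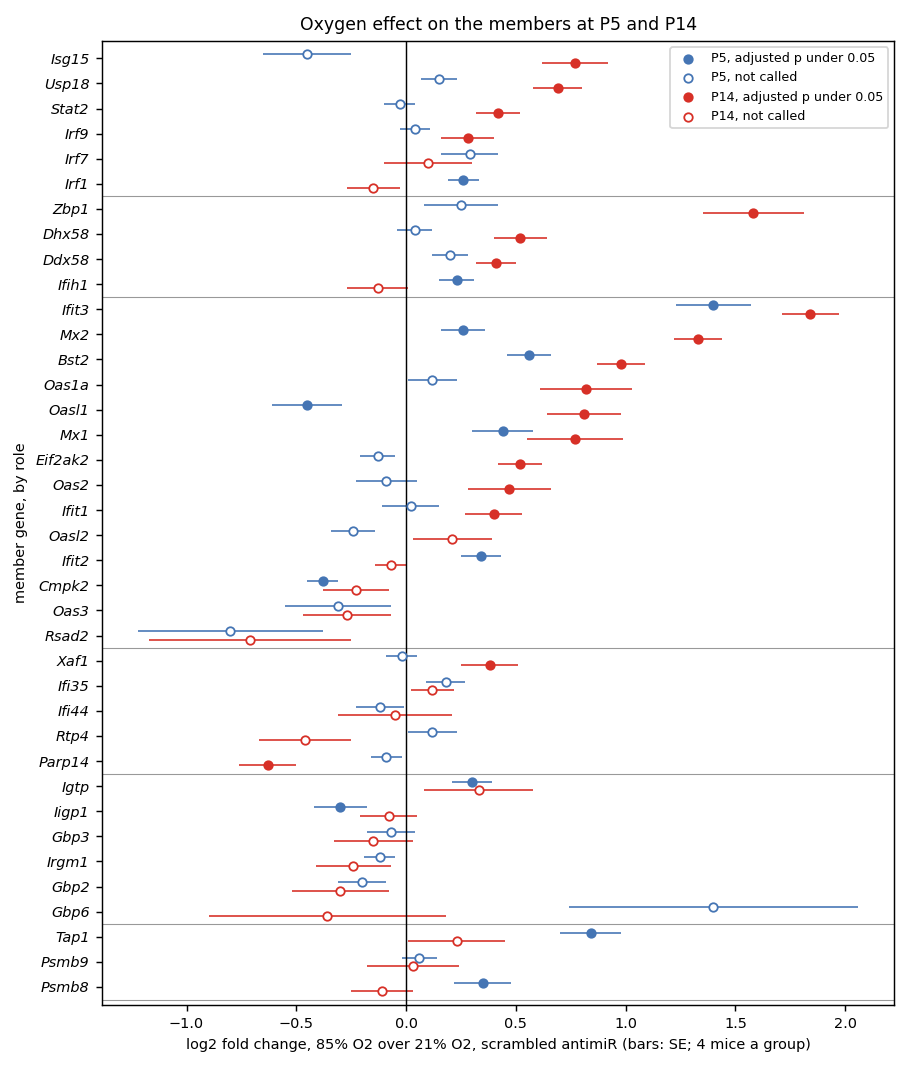
Log2 fold change of each member in 85% O2 over 21% O2 in scrambled-treated mice at P5 and at P14 (bars are SE, 4 mice a group, filled points adjusted p below 0.05), with members ordered by role. Ifit3 and Bst2 are filled to the right of 0 at both ages, Zbp1, Mx2 and Isg15 lie further right at P14, and the GTPases at P14 are all open points.

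The oxygen effect itself differed between the ages for 14 members. The difference (the P14 effect minus the P5 effect, scrambled-treated mice, fit over all 32 arrays) was above 0 for 11 members and below 0 for 3 (limma), while 40.8% of all 39163 probes tested were called, 22.8% above 0 and 18% below. Quantile normalization gave 8 above and 6 below, and normexp background correction 9 and 5. Mx2 differed by 1.07 ± 0.15 (adjusted p = 5.22e-06), Zbp1 by 1.34 ± 0.29 (adjusted p = 0.000825), Oasl1 by 1.26 ± 0.25 (adjusted p = 0.000257), and Isg15 by 1.22 ± 0.26 (limma, adjusted p = 0.000508). For these 4 members the effect at P14 was a rise, and at P5 it was small or below 0.

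Eif2ak2 (0.65), Oas1a (0.70), Usp18 (0.54), Dhx58 (0.48), Stat2 (0.45), Bst2 (0.42) and Xaf1 (0.40) also had the larger log2 value at P14. Of these, the call of Bst2 was lost with quantile normalization, with normexp and with the authors' processed values (0.12, adjusted p = 0.609), that of Dhx58 with quantile normalization and with the authors' processed values (0.40, adjusted p = 0.0549) and that of Oas1a with normexp. The Xaf1 call was not recomputed under the alternatives, and its dimmer probe gave 0.16 (limma, adjusted p = 0.693). The Oas1a call was also lost without replicate 4 of the P5 normoxia group (0.60), replicate 1 of the P14 hyperoxia group (0.59) or replicate 4 of the P14 normoxia group (0.59). The reverse held for Parp14 (-0.54), Irf1 (-0.42) and Ifit2 (-0.41), whose values were lower at P14 than at P5. Ifit3, called at both ages, had a difference of 0.43 ± 0.22 that did not pass (limma, adjusted p = 0.115), and neither did that of Tap1 (-0.61 ± 0.27, adjusted p = 0.0681), although Tap1 was called at P5 and not at P14.

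In normoxia most members were higher at P14 than at P5. In scrambled-treated mice 24 of 38 were higher and 3 lower at the later age (limma), where 51.4% of all probes tested were called, 27.7% higher and 23.8% lower. The median log2 fold change was 0.54 over the members and 0.04 over all probes. All 3 antigen-processing members were higher, namely Psmb8 (1.04 ± 0.14), Psmb9 (0.84 ± 0.16) and Tap1 (0.70 ± 0.19). All 5 members of mixed function were higher too (Parp14, Ifi44, Rtp4, Ifi35 and Xaf1, median 0.74). Of the 6 GTPases 5 were higher, with Gbp3 at 0.95 and Irgm1 at 0.79. These are the roles that gave no rise at P14 in hyperoxia apart from Xaf1.

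Ifit3 rose with age as well, by 1.35 ± 0.15 (adjusted p = 9.14e-08), and Ifit1 by 1.03 ± 0.13 (limma, adjusted p = 7.14e-07). Ifit1 read -2.72, -2.98, -2.43 and -2.69 at P5 and -1.67, -1.82, -1.48 and -1.73 at P14, with all P14 mice higher. The sensor gene Ifih1 read between -0.05 and 0.04 at P5 and between 0.69 and 0.89 at P14, a log2 fold change of 0.82 ± 0.11 (SE, limma, adjusted p = 1.71e-06). The members that fell with age were Rsad2 (-1.39 ± 0.46), Oas3 (-1.07 ± 0.23) and Eif2ak2 (-0.24 ± 0.09). The Oas3 value was -0.45 with normexp, and the Rsad2 call was lost by the methods' t-test and without replicate 4 of the P14 normoxia scrambled group (-1.06, adjusted p = 0.0704). Gbp6 had the largest value, 1.89 ± 0.63 (limma, adjusted p = 0.0147), but its dimmer probe gave 0.48, and without replicate 4 of the P14 normoxia scrambled group the value was 1.38 and no longer called (adjusted p = 0.0803). Stat2, Irf9 and Usp18 were not called with age.

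**Figure D3:**
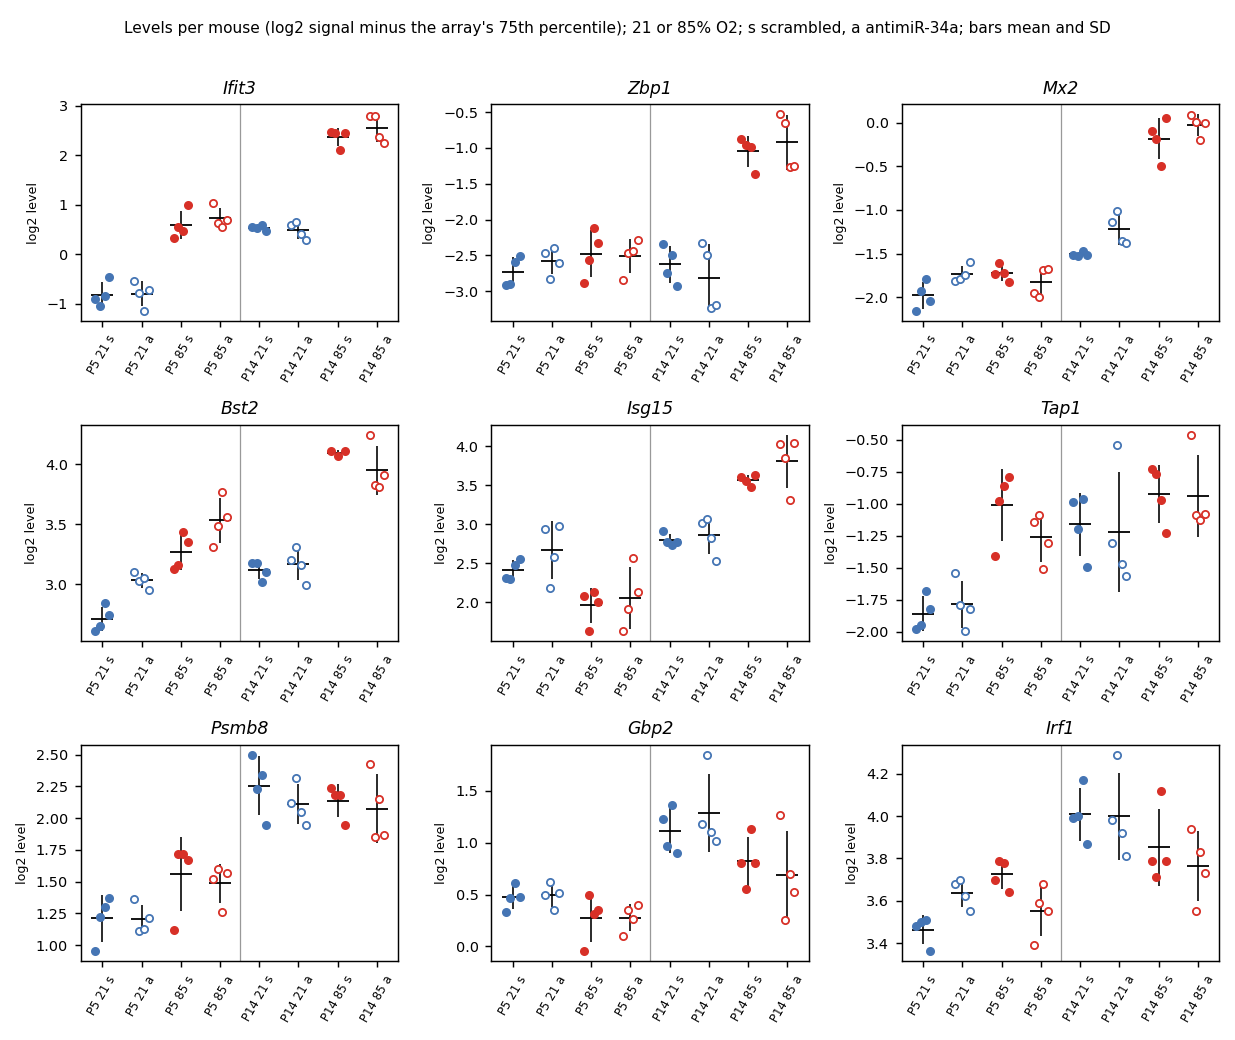
Level per mouse (log2 signal minus the array's 75th percentile, 1 point per mouse, bars mean and SD) of members in the 8 groups, with s for scrambled and a for antimiR-34a. Ifit3 is higher in 85% O2 at both ages, Zbp1 and Mx2 at P14, and in these 3 genes at P14 the scrambled and antimiR-34a means lie closer to each other than those of the 2 oxygen levels.

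Hyperoxia was also compared with normoxia in the antimiR-34a-treated mice, which are other animals from those above. At P14, 17 members were higher and 5 lower (limma), against 65.5% of all probes called, 27.6% higher and 37.9% lower, and the medians were 0.27 over members and -0.12 over all probes. Ifit3 read 0.60, 0.65, 0.40 and 0.29 in normoxia and 2.79, 2.79, 2.38 and 2.25 in hyperoxia, so the groups were as clearly apart as in scrambled-treated mice. Its log2 fold change was 2.07 ± 0.13 (SE, limma, adjusted p = 3.1e-08). Zbp1 rose by 1.89, Mx2 by 1.20, Oas1a by 1.19, Isg15 and Usp18 by 0.95 each, Mx1 by 0.80 and Bst2 by 0.79. The members that fell were Gbp6 (-2.16 ± 0.54), Gbp2 (-0.60), Iigp1 (-0.37), Ifit2 (-0.33) and Parp14 (-0.33). The falls of Gbp6 and Iigp1 rest on 1 probe each, since the dimmer probes gave -0.40 (limma, adjusted p = 0.274) and 0.01 (adjusted p = 0.941). Probes of Gbp6 may also bind the similar Gbp10. Ddx58 was called in opposite directions by its probes here too (0.52 and -0.32).

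Gbp6 read 2.21, 3.67, 3.85 and 3.62 in these P14 normoxia mice and 1.59, 0.69, 1.37 and 1.07 in the hyperoxia mice, which were all lower. The members' median depended on single mice. It was 0.10 without replicate 1 of the P14 hyperoxia antimiR-34a group and 0.42 without replicate 2 of the P14 normoxia antimiR-34a group. The former mouse had a mean over all 38 members of 0.75, against 0.29 to 0.31 in the other 3 mice of its group.

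At P5 in the antimiR-34a-treated mice, 5 members were higher and 15 lower in hyperoxia (limma), against 46.6% of all probes called, 17.1% higher and 29.5% lower. The medians were -0.11 over members and -0.09 over all probes. Ifit3 rose by 1.53 ± 0.17 (adjusted p = 6.53e-06), Tap1 by 0.52, Bst2 by 0.50, Irf7 by 0.37 and Igtp by 0.33. Among those that fell were Oasl2 (-0.59 ± 0.10), Cmpk2 (-0.51 ± 0.07), Oasl1 (-0.68 ± 0.16) and Isg15 (-0.61 ± 0.20). Oasl2 read 1.43, 1.41, 1.33 and 1.28 in normoxia and 0.70, 0.69, 0.91 and 0.79 in hyperoxia, with no overlap. Rsad2, at -1.11 ± 0.42 (limma, adjusted p = 0.0445), lost its call under 10 of 17 alternatives, and Isg15 under 6 of 17. The dimmer Ddx58 probe was lower (-0.35, limma, adjusted p = 0.0301) where the brighter gave 0.04. The difference of the oxygen effects between the antimiRs, given below, was called for 0 members.

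None of the 38 members was called between antimiR-34a and the scrambled antimiR, at either age or oxygen level. The limma fit called 0 members at P5 in normoxia (12 at an unadjusted p below 0.05), 0 at P5 in hyperoxia (5), 0 at P14 in normoxia (2) and 0 at P14 in hyperoxia (1). At P5 in normoxia 33 of the 38 values lay above 0 (median 0.14 over members and 0.04 over all probes), and at P5 in hyperoxia 28 lay below 0 (median -0.05 and 0.01), whereas at P14 20 lay below 0 in normoxia (-0.02 and 0.01) and 23 above 0 in hyperoxia (0.04 and -0.04). These signs were not tested. Over all probes tested, the shares called were 0.136%, 0.0639%, 0% and 2.67%, and the shares at an unadjusted p below 0.05 were 17.6%, 13.1%, 10.5% and 16.5%. The methods' t-test also gave 0 in each after Benjamini-Hochberg adjustment, with 7, 2, 2 and 1 members at its unadjusted p. The SE of a member's log2 fold change was 0.11 at P5 and 0.15 at P14 in the median, and 0.66 and 0.54 for Gbp6.

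The member nearest to a call was Ifi44, a cytoplasmic protein gene, in normoxia at P5. It read -1.72, -1.84, -1.26 and -1.56 with the scrambled antimiR and -1.10, -1.19, -1.12 and -1.06 with antimiR-34a. All antimiR-34a mice were higher, by 0.48 ± 0.11 (SE, limma, adjusted p = 0.0842). It passed without replicate 3 of the scrambled group (0.59, adjusted p = 0.0304) and with array weights (0.51, adjusted p = 0.0248). Bst2 was 0.32 ± 0.10 in the same comparison (limma, adjusted p = 0.144), with no overlap, and passed with array weights (0.33, adjusted p = 0.0488). The weights also raised the calls over all probes.

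In P5 hyperoxia the smallest p was that of Rtp4, a receptor transport gene, at -0.35 ± 0.11 (limma, adjusted p = 0.21). At P14 Gbp6 in normoxia had the largest value, 1.43 ± 0.54 (limma, adjusted p = 0.474). The dimmer Gbp6 probe gave 0.30 ± 0.31 (adjusted p = 0.785). The brighter passed without replicate 4 of the scrambled group (1.93, limma, adjusted p = 0.0496) and with array weights (2.12, adjusted p = 0.0014), which also raised the calls over all probes. The scrambled mice read 0.82, 1.90, 1.48 and 3.42, so replicate 4 was the only one within the range of the antimiR-34a mice. In P14 hyperoxia Ifit1 had 0.32 ± 0.13 (limma, adjusted p = 0.239).

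The difference between the oxygen effects under the 2 antimiRs was called for 0 members at P5 (9 at an unadjusted p below 0.05) and for 0 at P14 (2), with 0.0556% and 0.0884% of all probes called and 10.8% and 15% at the unadjusted p. At P5 34 of the 38 values lay below 0 (median -0.18 over members and -0.02 over all probes), from the same mice as the P5 values above, and at P14 24 lay above 0 (0.05 and -0.05). The methods' t-test gave 0 and 0, with 6 and 1 unadjusted. The smallest adjusted p was 0.178 at P5 (Rtp4, -0.65) and 0.269 at P14 (Ifit2, -0.26, limma). With array weights, which also raised the calls over all probes, Gbp6 passed at P14 (-2.13, limma, adjusted p = 0.0335).

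**Figure D4:**
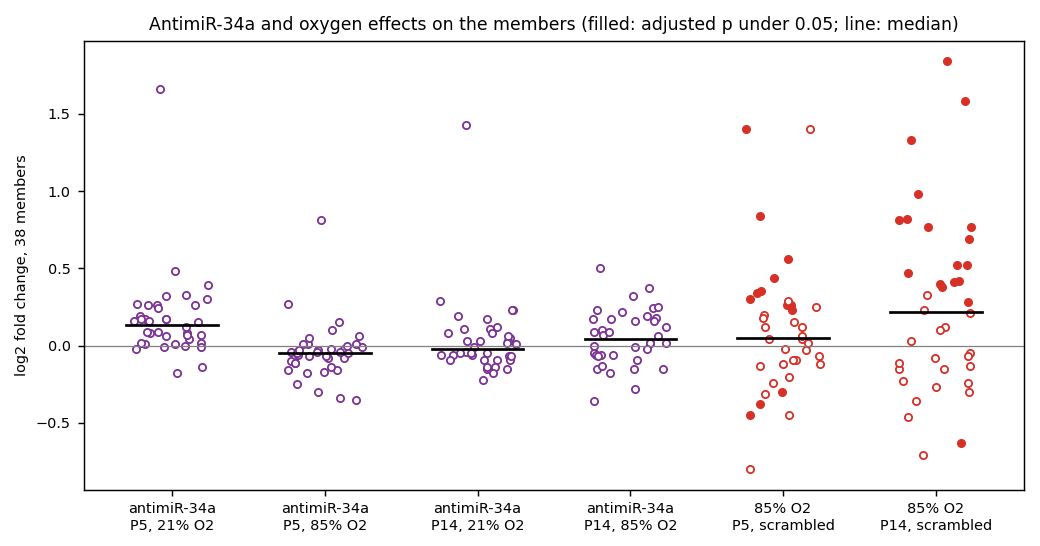
Log2 fold changes of the 38 members (1 point per member, filled where the adjusted p is below 0.05) for antimiR-34a over the scrambled antimiR in the 4 settings of age and oxygen, beside the oxygen effects in scrambled-treated mice. No antimiR point is filled, the furthest being the brighter probe of Gbp6 in normoxia (1.66 at P5 and 1.43 at P14, with 0.00 and 0.30 on its dimmer probe), while 13 points at P5 and 18 at P14 are filled for oxygen.

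Genes around the members in the pathway were read from lists of ligands and receptors, signalling, nucleic acid sensing and other interferon-induced genes. Over all probes 28.2% were higher and 32.7% lower in P14 hyperoxia, 17.4% and 26.5% at P5, and 27.7% and 23.8% with age. The probes of the interferon genes Ifnb1 and Ifna4 were not well above background on any array. Of the 9 ligand and receptor genes tested, 4 were higher and 2 lower in P14 hyperoxia, the latter being the interferon genes Ifnk (-1.57) and Ifnl3 (-1.11), and 4 were higher and 1 (Ifnl3, -0.71) lower at P5. Of the 13 signalling genes 5 were higher and 2 lower at P14, with the feedback inhibitor gene Socs3 (2.02) and Stat3 (1.44) higher and the Janus kinase gene Tyk2 (-1.08) lower. Of the 16 other nucleic acid sensing genes 3 were higher and 6 lower at P14 (median -0.06), with the DNA-sensing adaptor gene Tmem173 (0.69) higher and the dsRNA receptor gene Tlr3 (-0.73) lower, and 5 were higher and 3 lower at P5. Of the 41 other interferon-induced genes tested 10 were higher and 13 lower at P14. The chemokine gene Cxcl10 rose by 3.69, whereas Ifi203, of the family of DNA-binding interferon-induced genes, fell by 1.72 on the log2 scale. At P5 the split was 9 higher and 6 lower, with Cxcl10 at 3.12. In the age comparison 28 of these 41 were higher and 2 lower.

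Markers of cell types also moved between the groups, first in the scrambled-treated mice. In P14 hyperoxia, 7 of 10 macrophage markers were higher and 2 lower, with all 10 well above background and a summed level, as log2, of 5.92 to 6.64 in normoxia and 6.02 to 6.78 in hyperoxia. At P5 the macrophage sums were 4.85 to 5.08 and 5.38 to 5.91, with 7 higher and 1 lower. Also at P5, 3 of 9 T and NK cell markers tested, 2 of 8 neutrophil and 1 of 5 thymus markers tested were lower. Of 6 plasmacytoid dendritic cell markers tested there 1 was higher and 2 were lower, and 0 of 8 B cell markers were called. All 8 B cell markers fell at P14, with sums of 3.92 to 4.45 in normoxia and 2.64 to 3.13 in hyperoxia, as did 7 of 8 thymus markers (1.86 to 1.93 and 0.90 to 1.60), of which Themis, Rag1, Ptcra and Rag2 were not well above background on any P14 hyperoxia array with the scrambled antimiR. Of 9 T and NK cell markers tested 4 fell at P14 (2.63 to 3.03 and 2.23 to 3.00). Of 7 plasmacytoid dendritic cell markers tested 3 fell (7.36 to 8.07 and 7.27 to 7.50). For neutrophils, 3 of 8 were higher (4.46 to 4.95 and 4.80 to 5.78). Red blood cell markers were lower for 5 of 8 at P14 (8.12 to 9.30 in normoxia and 7.08 to 8.37 in hyperoxia, with Epb4.2 not well above background on any of the hyperoxia arrays) and for 3 of 8 at P5 (8.65 to 9.18 and 7.84 to 8.72). Of 7 skeletal muscle markers tested 5 were lower at P14 (2.24 to 3.32 and 0.57 to 1.22) and 4 at P5 (1.67 to 6.82 and 0.26 to 1.02). With age in normoxia all 8 B cell markers, 6 of 10 macrophage markers and 6 of 7 plasmacytoid dendritic cell markers tested were higher, as were 7 of 10 lung epithelial and endothelial, 6 of 8 thymus and 5 of 9 T and NK cell markers. In the same comparison 1 thymus, 2 of 8 neutrophil and 3 of 8 red blood cell markers were lower, and 1 of 7 skeletal muscle markers was higher. Of the 10 epithelial and endothelial markers 4 were higher and 1 lower in P14 hyperoxia (10.32 to 10.62 in normoxia and 10.52 to 10.81 in hyperoxia), and 2 higher and 2 lower at P5 (9.79 to 9.94 and 9.64 to 10.01). In the antimiR-34a-treated mice at P14, 7 of 10 macrophage markers were higher and 2 lower in hyperoxia (5.76 to 6.55 in normoxia and 6.03 to 6.43 in hyperoxia), all 8 B cell markers were lower (3.93 to 4.17 and 2.27 to 3.06), as were 7 of 8 thymus markers (1.75 to 2.59 and 1.06 to 1.45), and of 7 plasmacytoid dendritic cell markers tested 5 were lower and 1 higher (7.36 to 7.81 and 7.06 to 7.26). Of 9 T and NK cell markers tested 4 were lower and 1 higher there, with 4 of 8 red blood cell and 3 of 7 skeletal muscle markers lower, 2 of 8 neutrophil markers higher and 1 lower, and 3 of 10 epithelial and endothelial markers higher and 1 lower. At P5 in these mice 6 of 10 macrophage markers were higher and 1 lower (4.81 to 5.04 and 5.77 to 6.06), 4 of 8 B cell markers were higher (2.92 to 3.15 and 3.23 to 3.61), and 3 of 9 T and NK cell and 3 of 8 red blood cell markers were lower. Lower there too were 2 of 5 thymus, 1 of 8 neutrophil and 1 of 7 skeletal muscle markers tested. Plasmacytoid dendritic cell markers (6 tested) had 1 higher and 1 lower, and epithelial and endothelial markers (10 tested) 2 higher and 1 lower. Over all probes in the antimiR-34a-treated mice 27.6% were higher and 37.9% lower at P14, and 17.1% and 29.5% at P5. In the scrambled-treated mice the shares were 28.2% and 32.7% at P14, 17.4% and 26.5% at P5, and 27.7% and 23.8% with age. Several of the marker counts lay near these shares. The part of these cell types in the members' changes was not tested.

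The mean over the 38 members was higher at P14 than at P5 in most mice, with a pooled SD between mice of a group of 0.131. It lay between -0.40 and -0.07 in the 16 mice at P5, between -0.09 and 0.42 in the 8 normoxia mice at P14 and between 0.29 and 0.75 in the 8 hyperoxia mice at P14. The genes whose 8 group means followed that of the members most closely, by Pearson correlation over the 8 group means among 27042 genes, were Slfn5 (0.994) and Il2ra (0.992). With 8 points chosen among so many genes this is a description only.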

How the data were processed

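Lung RNA of 32 mice was hybridized to 1-colour Agilent mouse arrays, 1 array per mouse. The authors deposited scanner output of Agilent Feature Extraction (10.7.3.1, per the submitters' processing notes), and the processed signal used here is an intensity, background-corrected by that software but not normalized between arrays. The authors also deposited a table of log2 values, which behaved as quantile-normalized (the sorted values differed by at most 0.00152 between arrays) and was an alternative. No total count exists for arrays, so the number of arrays limits the precision. Labels do not say more about the replicates than that each is a mouse. A limma p-value sets a difference between groups against the spread between these mice, estimated with help from all probes in the fit. It does not take in variation between slides.

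The log2 processed signal minus each array's 75th percentile was fitted with limma (3.58.1, R 4.3.3). A fit held the 16 arrays of each age, and another all 32 where ages were compared. Probes entered if every array of some group had them well above background, with Benjamini-Hochberg adjustment over all tested probes and a threshold of 0.05. Control spots were left out, and the 244 missing probe values stayed missing. The brightest probe stood for a gene, and cell markers and pathway lists were read the same way. In each comparison up to 12 called members with the largest log2 fold change in size, or the 3 with the smallest p where none was called, were named and recomputed under the alternatives, and further members are named as parts of their role after their values were seen. The alternatives were background correction, normalization, filter, test, replicate block, array weights, probe choice, samples in the fit, a fold threshold of 2 and leaving out each mouse. The members and the lists were chosen with earlier results of these data known. On simulated data for the P14 oxygen comparison (38320 probes), the probes changed by a log2 value of 0.5, 1 and 2 numbered 66, 67 and 67. Of these 39.4%, 67.2% and 92.5% were called, and 9 of 38120 unchanged probes. In the real comparison 60.9% of all probes were called, which makes the adjustment less strict there. The simulated shares therefore do not carry over to the real comparison. Promoter windows came from RefSeq (GRCm38.p6). A gene of the signalling list is counted but not reported by name here.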

Additional observations from a re-analysis of the deposited data

Results flagged for a closer look

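In groups of 4 mice, 176 sets of values (21 genes and the member mean, in 8 groups) were searched for a mouse far from the other 3 by Dixon's test, which chance alone passes in about 1 of 20 groups, and 11 stood out. At P5 these were Oas3 in normoxia with the scrambled antimiR (replicate 4 at -3.42, the others -4.03 to -3.96), Ifi44 in hyperoxia with the scrambled antimiR (replicate 4 at -1.69, the others -1.73 to -1.72), Psmb8 in the same group (replicate 1 at 1.12, the others 1.67 to 1.72) and Ifi44 in hyperoxia with antimiR-34a (replicate 3 at -1.39, the others -1.77 to -1.75). At P14 they were Mx2 in normoxia with the scrambled antimiR (replicate 3 at -1.47, the others -1.53 to -1.52), Gbp6 in normoxia with antimiR-34a (replicate 1 at 2.21, the others 3.62 to 3.85) and Ifit3 in hyperoxia with the scrambled antimiR (replicate 3 at 2.10, the others 2.46 to 2.48). For Mx2, and for Ifi44 with the scrambled antimiR, the distance was small in a very tight group.

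A single mouse accounted for the remaining 4. Replicate 1 of the P14 hyperoxia antimiR-34a group had a member mean of 0.75 (the others 0.29 to 0.31), a Tap1 level of -0.46 (-1.13 to -1.08), an Ifi44 level of 0.28 (-1.12 to -0.94) and an Rtp4 level of 3.04 (2.18 to 2.28). Without this mouse 15 members were higher and 7 lower in hyperoxia, against 17 and 5 with it.

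The oxygen effect differed between P5 and P14 in scrambled-treated mice for 14 members, tested as the difference of the log2 effects in the limma fit over all 32 arrays. Over all probes tested 40.8% were called, 22.8% above 0 and 18% below, so the members were not called more often than other probes. The values were 1.34 for Zbp1, 1.26 for Oasl1, 1.22 for Isg15, 1.07 for Mx2, 0.70 for Oas1a, 0.65 for Eif2ak2, 0.54 for Usp18, 0.48 for Dhx58, 0.45 for Stat2, 0.42 for Bst2 and 0.40 for Xaf1, and they were -0.54 for Parp14, -0.42 for Irf1 and -0.41 for Ifit2. The calls of Bst2, Dhx58 and Oas1a were lost under some alternatives, as given above. Each slide held 1 age and 1 oxygen level, so the difference between the ages cannot be told apart from the slides.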

How the results depend on the processing

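Of the called members that were recomputed under the alternatives (up to 12 per comparison), none changed its sign, and other members named by role were not recomputed. The count of members called stayed within 1.5 times the reported one except as follows. The P5 oxygen count in scrambled-treated mice was 8 without the filter on dim probes, 7 by the methods' t-test and 1 with a fold of at least 2. In antimiR-34a-treated mice it was 12 by that t-test and 2 with the fold. At P14 the count in antimiR-34a-treated mice was 14 by the t-test and 5 with the fold, with a median of 0.47 under array weights. The fold left 3 members for P14 in scrambled-treated mice, 6 for age and 4 for the difference between ages. Array weights gave 2 antimiR calls at P5 and 3 at P14 in normoxia, and 1 call with a median of 0.22 for the P14 difference of oxygen effects. These weights also raised the calls over all probes. In P14 normoxia Mx2 passed at an unadjusted p of 0.00979 (limma with weights, adjusted p = 0.0405), where the main fit called 0% of all probes. The share over all probes with weights is not given here, so these calls cannot be read as particular to the members. Leaving out each mouse in turn gave counts of 7 to 12 and medians of 0.03 to 0.09 for P5 scrambled, 14 to 21 and -0.15 to -0.10 for P5 antimiR-34a, 15 to 17 and 0.16 to 0.30 for P14 scrambled, 18 to 23 and 0.10 to 0.42 for P14 antimiR-34a, 23 to 26 and 0.49 to 0.56 for age, and 14 to 16 and 0.12 to 0.22 for the difference between ages. For antimiR-34a in normoxia the counts were 0 to 1 at both ages (medians 0.09 to 0.15 at P5 and -0.10 to 0.05 at P14), in hyperoxia 0 (-0.09 to -0.03 and -0.09 to 0.10), and for the differences of oxygen effects 0 (-0.22 to -0.14 at P5 and -0.09 to 0.15 at P14). Replicate numbers did not pair the mice (correlations of same-numbered mice from -0.35 to 0.50 over 12 pairs of groups, none with all above 0.1). With the replicate block the oxygen counts were 10 and 17 at P5 and 19 and 23 at P14 (scrambled, then antimiR-34a), the age counts 27 and 14, and the antimiR and difference counts 0. The cause of these shifts was not tested.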
